A study of Apostichopus japonicus with 3 samples.

Results

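Serum amyloid A was followed through summer dormancy in the respiratory tree of the sea cucumber Apostichopus japonicus. It was represented by 2 isotigs, isotig08093 and isotig08092, out of 20991 that had reads in at least 1 library. An isotig is an assembled transcript, and several isotigs can come from 1 gene. The members were every isotig whose best protein match names serum amyloid. The transcript was selected on the read counts of isotig08093 in deep aestivation and the other stages of these libraries, so the levels of the pair are given as a description, with no test. The respiratory tree is the branched organ through which the animal takes up oxygen. Animals were taken when active (non-aestivation), dormant (deep aestivation) or waking from dormancy (arousal from aestivation). Each stage had at least 15 individuals and gave 1 library of poly(A) RNA. The labels do not say how the RNA of these individuals was combined, no marker gene checks the stage labels, and no difference has a replicate check. Libraries held 0.941, 0.887 and 0.963 M (1e6) uniquely aligned reads in that order, and all 95% intervals are exact and cover counting error only.

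Serum amyloid A is a small secreted protein that belongs to the acute-phase proteins, which vertebrates release during infection and injury. In mammals the liver makes it on signals from interleukin-1, interleukin-6 and tumour necrosis factor through NF-kappa-B and C/EBP factors. It travels there on high density lipoprotein and draws leukocytes through formyl peptide receptors. In another sea cucumber, Holothuria glaberrima, a serum amyloid A transcript is known from the regenerating intestine.

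Both isotigs matched the same serum amyloid protein A of A. japonicus itself, isotig08093 with a match E-value of 6.4e-46 over an assembled length of 808 bases and isotig08092 with 6.8e-51 over 820 bases. They carried the same gene ontology terms, among them plasma lipoprotein particle, receptor binding, acute inflammatory response and leukocyte chemotaxis. No other isotig matched this protein.

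Serum amyloid A was close to undetected in non-aestivation, high in deep aestivation on both isotigs, and still present at arousal on isotig08092 only, with 31 reads there and 0 on isotig08093. Isotig08093 had 1 read before dormancy, in non-aestivation, then 162 in deep aestivation and 0 at arousal. On the RPKM scale (reads per kilobase of isotig and per 1e6 reads) these were levels of 1.31 (interval 0.033 to 7.33), 226 (193 to 264) and 0 (up to 4.74). Isotig08092 had 1, 38 and 31 reads in the same order. Its RPKM levels were 1.30 (0.033 to 7.22), 52.2 (36.97 to 71.7) and 39.3 (26.7 to 55.7). The intervals of deep aestivation and arousal overlap for isotig08092, and for isotig08093 they do not. In whole-organ RNA, fewer cells of a type and less RNA per cell cannot be told apart.

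**Figure D1:**
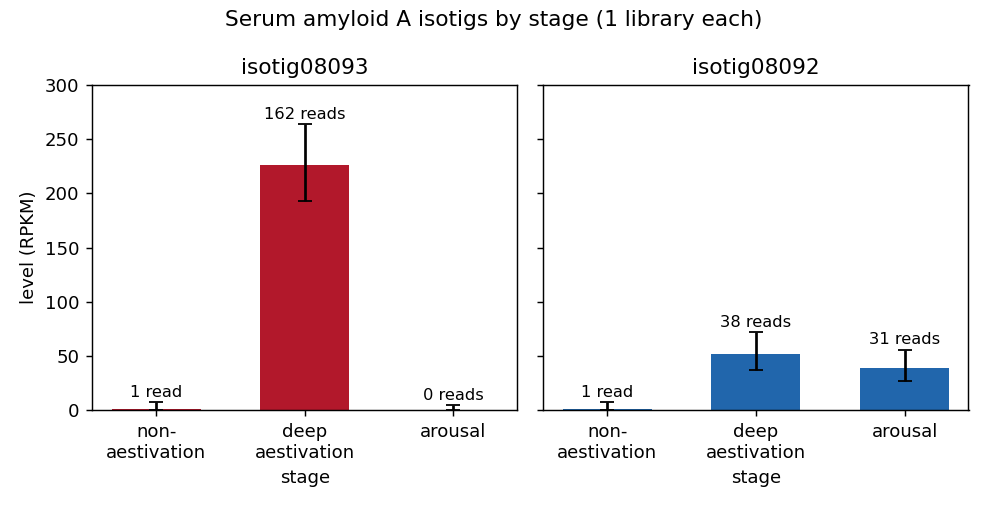
RPKM level of each serum amyloid A isotig at the 3 stages, 1 library each; bars are levels, error bars are exact 95% Poisson intervals of the read count, and the number of reads is printed above each bar. Isotig08093 stands at 226 RPKM in deep aestivation and at 0 in arousal, while isotig08092 stands at 52.2 and 39.3 RPKM.

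In deep aestivation isotig08093 reached a level above 96.8% of the 17992 isotigs detected there, whereas in non-aestivation its single read put it above 5.49% of 18915. Isotig08092 was above 83.3% of detected isotigs in deep aestivation and above 78.6% in arousal. The transcript thus lay in the upper part of the expressed range in dormant animals and at its bottom in active ones.

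The ratio of read rates in deep aestivation to non-aestivation was 172 for isotig08093 (interval 30.4 to 6831) and 40.3 for isotig08092 (6.81 to 1634). Both rest on 1 read in non-aestivation, so their upper bounds are loose. Summed, the pair had 200 reads in deep aestivation, against 2 in non-aestivation, a ratio of 106 (28.99 to 882). Calls used a change of at least 1 in log2(RPKM + 0.5), that is 2-fold. Both members were called higher, and so were 13.1% of the 10896 isotigs that reached 20 reads summed over the libraries, while 18.6% were called lower. The members' log2 ratios were 6.96 and 4.88, beside a median of -0.12 over those isotigs. Isotig08093 ranked among the 5 highest ratios, but it was chosen for this contrast, so its rank is no evidence.

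Between arousal and deep aestivation the isotigs parted. Isotig08093 had 0 reads in arousal, against 162 in deep aestivation. By the exact interval of the ratio this is at least 47.1-fold lower. Isotig08092 had a ratio of 0.752 (0.452 to 1.24), an interval that holds equal rates, and it was not called. At 31 and 38 reads a difference of up to 2.21-fold lower in arousal lies within the interval. The sum had 31 reads in arousal, against 200 in deep aestivation, and was 7.003-fold lower (4.78 to 10.6). In this comparison 8.06% of isotigs were called higher and 8.93% lower.

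Arousal also differed from non-aestivation. Isotig08092 had 31 reads in arousal, against 1 in non-aestivation, a ratio of 30.3 (5.05 to 1235), and was called higher, as were 12.5% of isotigs. Isotig08093 had 0 reads in arousal, against 1 in non-aestivation, too few in both for a fold to be given. The sum was 15.2-fold higher in arousal (3.86 to 131). The 3 comparisons share libraries and are not independent of one another.

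The division of reads between the isotigs differed between the libraries, 1 per stage. Whether the isotigs are splice forms, alleles or gene copies was not tested. In stage order, isotig08093 took 1 of 2 serum amyloid reads, then 162 of 200 and 0 of 31. These are shares of 50% (exact binomial interval 1.26 to 98.7), 81.0% (74.9 to 86.2) and 0% (up to 11.2). The intervals for deep aestivation and arousal are far apart, whereas the 2 reads in non-aestivation fix no share.

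The reads fell on a small part of each isotig. Every isotig with 1 read had 49 covered bases in each library, so a read was 49 bases long. The deposited coverage of isotig08093 in deep aestivation was 17.8%, so 162 reads lay on 144 bases, and 664 bases had no uniquely aligned read. Isotig08092 had 12.7% coverage in deep aestivation and 13.1% in arousal, which is 104 and 107 bases. The covered length of isotig08092 thus differed by few bases between these libraries. Over the covered bases, reads were stacked to a mean depth of 55.1 on isotig08093 and 17.9 on isotig08092 in deep aestivation, and 14.2 on isotig08092 in arousal.

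Such narrow coverage was rare at these read numbers. In deep aestivation, 54 other isotigs lay within 1.2-fold of isotig08093 in both reads and length, and they had a median coverage of 90.5% and a minimum of 22.9%. For isotig08092, 260 isotigs lay within the same limits in deep aestivation, with a median of 69.5%, and 1 of them was at or below its coverage. In arousal the median over 305 such isotigs was 66.1%, and again 1 of them was at or below it. Over all lengths, 38 of 1317 isotigs with at least 100 reads in deep aestivation had coverage under 20%, which is 2.89%.

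**Figure D2:**
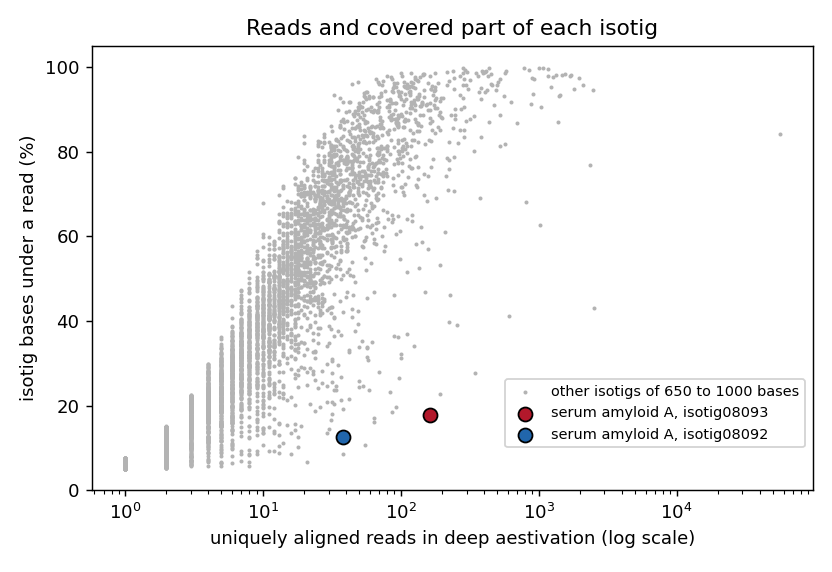
Share of isotig bases under a read, in percent, against uniquely aligned reads in deep aestivation on a log axis, for 4960 isotigs of 650 to 1000 bases; each point is an isotig. The serum amyloid A isotigs lie under most other isotigs of like read number, at 17.8% with 162 reads and 12.7% with 38 reads. Some others also lie low, such as isotig08134 at 8.58% with 38 reads.

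The counts hold reads that align to 1 position, so a read that fits both isotigs is in neither count. Isotigs that share a protein match with a neighbour in number were covered less widely in general. Among isotigs of 650 to 1000 bases with at least 30 reads in deep aestivation, 16 in such pairs had a median coverage of 41.5%, and 1021 outside them had 78.0%. The serum amyloid A isotigs lay under both. Their RPKM levels divide the reads by the whole length, and reads shared by the pair are not in the sum. Per kilobase of covered bases and per 1e6 reads, isotig08093 stood at 1268 in deep aestivation, and isotig08092 at 412 in deep aestivation and 301 in arousal.

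To set the change in division against other transcripts, pairs of consecutively numbered isotigs with the same best protein match were compared, a comparison chosen after the values had been seen. Of 951 such pairs, 237 had at least 20 reads in both arousal and deep aestivation. The share of the higher-numbered isotig moved by a median of 7.69 percentage points, and 90% of pairs moved by less than 27.8 points. A move of at least 50 points was found in 0.844% of pairs. These were serum amyloid A, with 81.0 points, and a hypoxanthine-guanine phosphoribosyltransferase pair. In the latter, isotig07407 took 73.3% of 30 reads in arousal and 20% of 35 in deep aestivation. Isotig08093 was selected on its reads in these stages, so the place of its pair among the 237 is no evidence. The pair of ependymin-related protein, a secreted glycoprotein also known from regenerating sea cucumber gut, moved by 44.0 points.

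**Figure D3:**
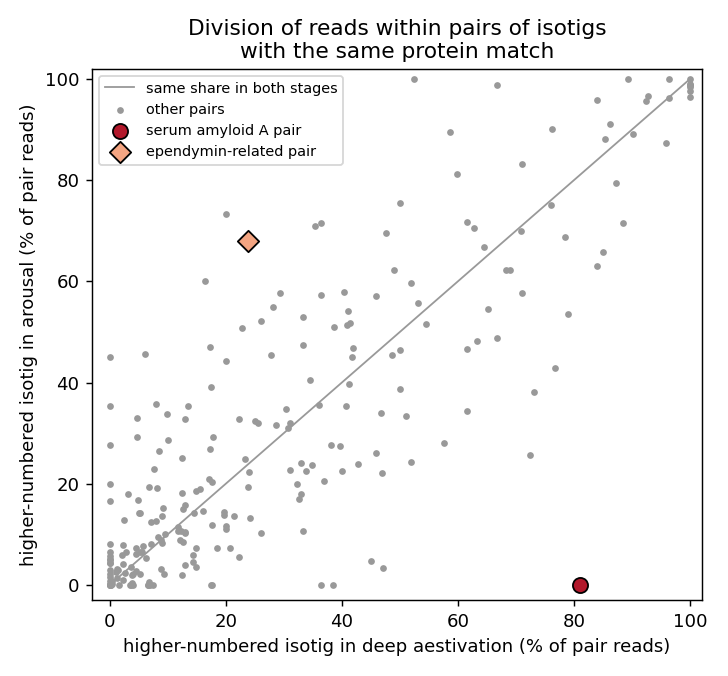
Share of pair reads on the higher-numbered isotig, in percent, in arousal (vertical) against deep aestivation (horizontal), for 237 pairs of consecutively numbered isotigs with the same protein match; the line marks equal shares. The serum amyloid A pair lies at 0% in arousal and 81.0% in deep aestivation, and the ependymin-related pair at 67.9% and 23.9%.

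The ependymin-related isotigs also went apart between stages. In stage order isotig07194 had 199, 773 and 103 reads, and isotig07195 had 954, 243 and 218. Isotig07194 peaked in deep aestivation, as isotig08093 did, but by less. Its ratio of read rates to non-aestivation was 4.12 (3.52 to 4.84), beside 172 for isotig08093. Isotig07195 was lower in dormancy, at 243 reads in deep aestivation, against 954 in non-aestivation, a change of 3.70-fold (3.21 to 4.28). Their sum was 1153, 1016 and 321 reads, without the peak. Serum amyloid A kept a peak in deep aestivation in its sum. Isotig08093, selected on its reads there, supplied 162 of those 200 reads, so this contrast between the pairs is a description only.

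The transcripts most like serum amyloid A were sought among 1394 isotigs with at least 100 reads and an informative name. Likeness was the Euclidean distance between stage profiles, each profile being the RPKM of the 3 stages divided by their sum. With 3 stages and 1 library each, closeness is a weak criterion, and with a minimum of 50 reads 5 of the 8 closest were kept. The closest to isotig08093 was a lactase-phlorizin hydrolase, a glycosidase, on isotig14693, at a distance of 0.0082. It had 0, 119 and 0 reads in stage order, and in deep aestivation they covered 86.9% of its length. It was followed by a protein with EGF-like domains (isotig26818, distance 0.077), with 20, 310 and 2 reads and 95.7% coverage in deep aestivation. Neither shows the narrow coverage of serum amyloid A.

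Further off were an angiopoietin-like protein (isotig23115, distance 0.31), ependymin-related isotig07194 (0.33) and an ectodysplasin-A-like protein (isotig13595, 0.42). Ectodysplasin is a ligand of the tumour necrosis factor family in vertebrates, and isotig13595 had 35, 167 and 59 reads in stage order. A second lactase-phlorizin hydrolase (isotig08881), a gamma subunit of the translocon-associated protein complex (isotig07408) and a tissue inhibitor of metalloproteinase (isotig15867) closed the 8, at 0.47 to 0.48. Isotig08881 has the same protein match as isotig14693 and had 32, 540 and 290 reads in stage order. It kept reads at arousal where isotig14693 had 0, as isotig08092 did beside isotig08093. Not being consecutively numbered, these hydrolase isotigs were outside the comparison of pairs. Isotig07408 had 8.26% coverage in deep aestivation, the narrowest of these 8. For the sum of the serum amyloid isotigs, 7 of the 8 closest were shared, with the Sec61 gamma subunit (isotig02636) in place of isotig07408. Isotig08093 gave 226 of the 278 RPKM of the sum in deep aestivation, so this overlap is no further evidence.

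Isotig08092 had a different stage profile, and 0 of its 8 closest were among those of isotig08093. That count follows from their profiles and is no further evidence of a difference. This search was added after the values had been seen. Closest were betaine-homocysteine S-methyltransferase 1-like (isotig13345, distance 0.059), which remakes methionine, and glycine N-methyltransferase-like (isotig19436, 0.065), which uses up its activated form. Next came the transcription factor KLF2/4 (isotig09309, 0.074) and a smooth muscle myosin light chain kinase (isotig13077, 0.0897). KLF2/4 had 176, 1450 and 1028 reads in stage order. The kinase had 198, 1155 and 885 reads, and a phosphatase of MAP kinases, dual specificity phosphatase 1-like (isotig19988, 0.11), had 23, 122 and 86. An isotig similar to ECM 18 (isotig08544, 0.12) had 38, 175 and 125 reads, with 16.2% coverage in deep aestivation. One similar to neurotrypsin (isotig14143, 0.12) had 9, 62 and 37 reads. A follistatin, an inhibitor of activin (isotig25507, 0.12), had 8, 51 and 56 reads.

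**Figure D4:**
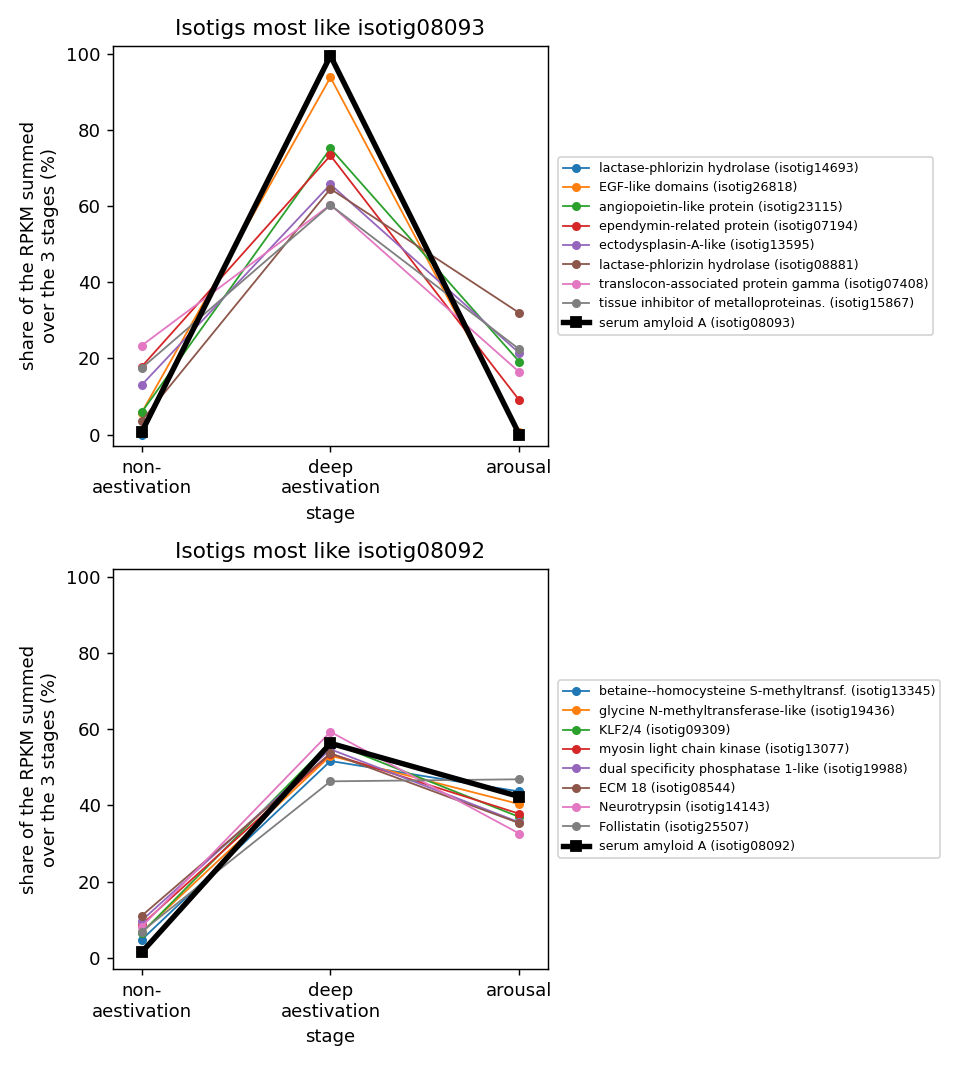
Share of the RPKM summed over the 3 stages, in percent, at each stage for isotig08093 (top) and isotig08092 (bottom), drawn as thick black lines, each with the 8 named isotigs of closest profile. Isotig08093 has 99.4% of its RPKM in deep aestivation, while isotig08092 has 56.3% there and 42.3% in arousal.

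Of 15 isotigs of other acute-phase and plasma-type proteins, 1 was called higher and 2 lower between deep aestivation and non-aestivation, and 4 lower with a pseudocount of 0.1. Over all isotigs 13.1% were called higher and 18.6% lower, and the list's median log2 ratio was -0.06, beside -0.12 over all. The most abundant, complement component C3 (isotig13167), which opens the complement cascade, had levels of 611, 741 and 595 RPKM in stage order. Complement component 3-2 (isotig29329) had 572 RPKM in deep aestivation, against 3075 in non-aestivation, and was 5.37-fold lower (4.45 to 6.52). A complement factor B isotig (isotig28836), a protease of the alternative pathway, was the member called higher, on 16 reads in deep aestivation and 6 in non-aestivation. Other factor B isotigs went the other way. Isotig00440 had a log2 ratio of -0.99 and isotig00445 (factor B-2) one of -0.95, and both were called lower with the pseudocount of 0.1.

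At arousal the same list had 1 member called higher and 3 lower than in deep aestivation, beside 8.06% and 8.93% of all isotigs. Complement factor B on isotig00440 had 142 reads in arousal, against 20 in deep aestivation, a ratio of 6.54 (4.08 to 11.0). Melanotransferrin (isotig15143), an iron-binding protein, was 2.12-fold lower (1.26 to 3.68).

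The receptor list was drawn as name patterns around the receptors known for mammalian serum amyloid A. It held 4 measured isotigs, some of them only relatives of those receptors, and none was a formyl peptide receptor by name. A toll-like receptor 3-like isotig (isotig16282), named for a sensor of double-stranded RNA that entered by its family name, had 28, 58 and 76 reads in stage order and was 2.20-fold higher in deep aestivation than in non-aestivation (1.38 to 3.58). Scavenger receptor class B member 2 (isotig06351), a lysosomal relative of the lipoprotein receptor, was 3.02-fold lower (1.98 to 4.71). The lipoprotein receptor itself, scavenger receptor class B type I-like (isotig17642), had 30, 40 and 24 reads, and toll-like receptor 2-like (isotig22684) had 19, 22 and 16, both within 2-fold. With 8.06% of all isotigs called higher and 8.93% lower between arousal and deep aestivation, 0 of these 4 were called.

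Among 16 isotigs of inflammatory signalling and acute-phase transcription, 2 were called higher and 3 lower between deep aestivation and non-aestivation, close to the 13.1% and 18.6% of all isotigs, with a median log2 ratio of -0.46. Both that were higher are named for macrophage migration inhibitory factor, a cytokine. Isotig14345 had 50 reads in deep aestivation, against 9 in non-aestivation, and was 5.89-fold higher (2.87 to 13.6). Isotig14943 had 72 and 17 reads and was 4.49-fold higher (2.62 to 8.13). At arousal they had 35 and 41 reads, so they lay between the other stages.

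The NF-kappa-B p105 subunit (isotig13687), precursor of a DNA-binding subunit of this factor, had 123, 108 and 126 reads in stage order and was within 2-fold. Its inhibitors were also within 2-fold, with log2 ratios of deep aestivation to non-aestivation of 0.78 for an IkB-like isotig (isotig14095) and 0.68 for I-kappa-B-zeta (isotig16434). CCAAT/enhancer-binding protein delta-like (isotig07154), a relative of the mammalian activators of serum amyloid A, had 25, 44 and 37 reads and a log2 ratio of 0.87. IkappaB kinase (isotig09495), which releases NF-kappa-B by marking its inhibitor, was 4.34-fold lower (2.16 to 9.63), with 10 reads in deep aestivation and 46 in non-aestivation. The others called lower were an interleukin 1 receptor-like 1 ligand-like isotig and a trafficking protein that entered by the letters of its name.

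Of 30 isotigs of lipid carriers and their receptors, 6 were called higher and 5 lower in deep aestivation, beside 13.1% and 18.6% of all isotigs, and the median log2 ratio was 0.27. Similar to apolipoprotein B (isotig13070), a large lipid carrier, had levels of 505, 937 and 244 RPKM in stage order. It too stood highest in deep aestivation, with a log2 ratio over non-aestivation of 0.89 (1.004 with TMM scaling), and was 3.84-fold lower in arousal than in deep aestivation (3.62 to 4.07). It was also 1 of the 3 further isotigs that share the terms plasma lipoprotein particle or acute inflammatory response with serum amyloid A. The others were an argininosuccinate synthase-like isotig (isotig14156), 3.18-fold lower in dormant than in active animals, and a hypothetical protein (isotig16621) with 23, 15 and 13 reads in stage order.

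The largest change in the lipid list in deep aestivation was OSBPL10 (isotig20631), a sterol-binding protein, with 148 reads in deep aestivation, against 20 in non-aestivation. It had 256 reads at arousal and did not decline there.

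The protease list was drawn as name patterns around proteases known to cleave mammalian serum amyloid A. Its members, the matrix metalloproteinases among them, can be only relatives of those proteases. Of 13 isotigs, 2 were called higher and 2 lower in deep aestivation, close to the 13.1% and 18.6% of all isotigs. The median log2 ratio was 0.11. A matrix metalloproteinase 16 (isotig11251), a membrane-bound matrix protease, was 2.80-fold higher (2.20 to 3.59), with 248 reads in deep aestivation and 94 in non-aestivation. Matrix metalloproteinase 24-like (isotig13867) was 2.53-fold higher (1.72 to 3.78). Cathepsin D (isotig06265), a lysosomal protease, had 247, 92 and 217 reads in stage order, lowest in deep aestivation. Cathepsin L2 (isotig13709) had 156 reads in arousal, against 17 in deep aestivation, and cathepsin B (isotig21461) was the most abundant, at 1289, 1275 and 1658 RPKM in stage order. In arousal 3 of the 13 were called higher than in deep aestivation and 1 lower, beside 8.06% and 8.93% of all isotigs.

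Transcripts known from echinoderm gut regeneration were called higher in 4 and lower in 5 of 18 isotigs in deep aestivation, beside 13.1% and 18.6% of all isotigs, with a median log2 ratio of -0.05. Beside ependymin-related isotig07194 and the matrix metalloproteinases, a tenascin-R-like isotig (isotig09541), named for a matrix glycoprotein, was 2.65-fold higher (1.55 to 4.70). A tenascin-X-like isotig (isotig27860) went the other way and was called lower, with a log2 ratio of -1.09 (-0.98 with TMM scaling). Both isotigs of the mitochondrial chaperone mortalin were 2.78-fold lower. In arousal 2 were called higher than in deep aestivation and 3 lower, beside 8.06% and 8.93% of all isotigs.

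**Figure D5:**
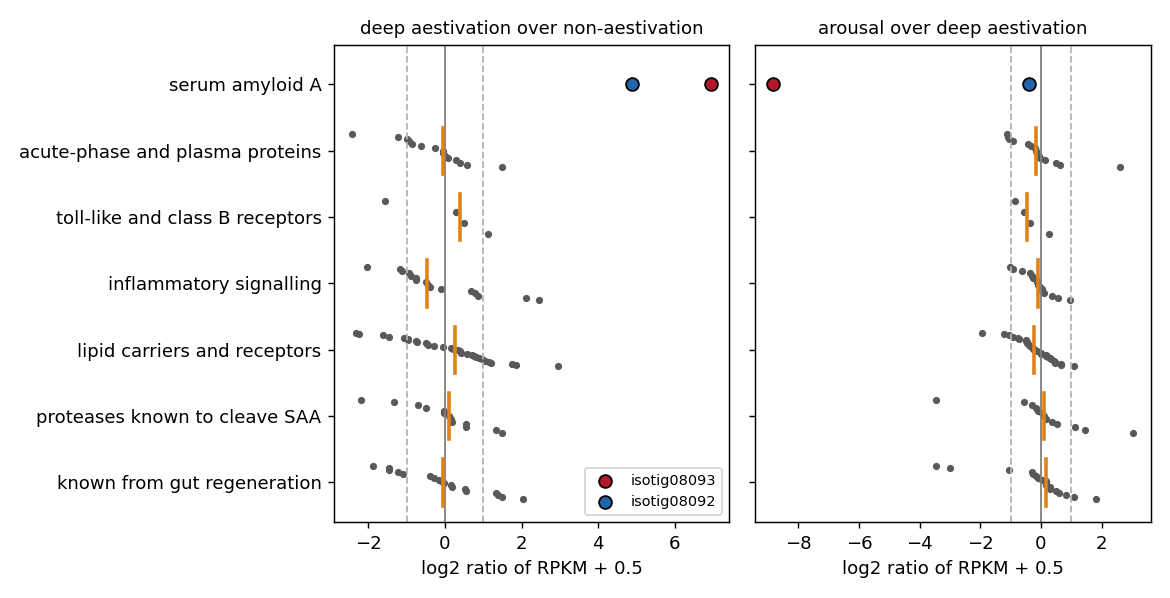
Log2 ratio of RPKM + 0.5 in deep aestivation over non-aestivation (left) and in arousal over deep aestivation (right) for the serum amyloid A isotigs and each measured isotig of 6 gene lists; orange lines are list medians, dashed lines mark 2-fold. The serum amyloid A isotigs stand at 6.96 and 4.88 on the left, and isotig08092 stands at -0.41 on the right, where the place of isotig08093, with 0 reads in arousal, is set by the pseudocount.

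The summed levels of markers of other tissues also differed between the libraries. All 19 isotigs named for germ cell proteins had reads in non-aestivation, but 12 of them in deep aestivation and 11 at arousal. Of all 20991 isotigs, 18915, 17992 and 18141 had reads in stage order. Among 8 measured germ cell isotigs, 0 were called higher and 3 lower in deep aestivation, beside 13.1% and 18.6% of all isotigs. The summed level of the 19 was 254, 77.3 and 56.1 RPKM in stage order, and the sperm protein bindin had 61, 0 and 0 reads. Coelomocytes are the free cells of the body cavity. Their list held isotigs named for coelomocyte, integrin, amassin, profilin or coactosin, and a match by name need not be confined to these cells. Its most abundant isotig was a profilin-A (isotig05206). The list summed to 788, 551 and 515 RPKM over 23 isotigs. In deep aestivation 0 of 14 were called higher and 3 lower, beside 13.1% and 18.6% of all isotigs. Muscle markers summed to 1911, 1925 and 1587 RPKM over 43 isotigs, and cilia markers to 279, 191 and 123 RPKM over 28. In deep aestivation 1 of 11 measured cilia isotigs was called higher and 1 lower, beside 13.1% and 18.6% of all isotigs. Of 25 muscle isotigs, 1 was called higher and 5 lower (2 and 4 with TMM scaling). The median log2 ratio was -0.07 for cilia and -0.33 for muscle, beside -0.12 over all isotigs. By their sums alone, germ cell, coelomocyte and cilia markers were highest in non-aestivation, where serum amyloid A had 2 reads. The part of these 4 lists in the serum amyloid A result was not tested.

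Digestive tract markers summed to 2279.7, 2158 and 2832 RPKM in stage order over 21 isotigs, and in deep aestivation 4 of 10 were called higher and 1 lower (0 with TMM scaling), beside 13.1% and 18.6% of all isotigs. Of the 4, 3 were inter-alpha-trypsin inhibitor heavy chains, which entered by the word trypsin. In mammals these are plasma proteins that bind hyaluronan. They had 26, 18 and 35 reads in deep aestivation (isotig04207, isotig04208 and isotig21059), against 8, 7 and 18 in non-aestivation. The remaining member was a carboxypeptidase A-like isotig. The part of digestive tract markers in the serum amyloid A result was not tested.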

How the data were processed

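Per the labels' protocols, mRNA was pulled down with oligo(dT) beads and cut to fragments before random-primed cDNA synthesis. CASAVA 1.5 is named in the submitters' processing notes. The sources used here do not name the aligner. The authors deposited, per the file headers and column description, for each isotig the count of reads aligned to 1 position, the RPKM and the percent of bases covered, on a published transcriptome assembly. RPKM recomputed from the counts matched within a relative tolerance of 1e-09. Isotigs that a table does not list were set to 0 reads. Strand is not described, so overlapping opposite transcripts cannot be told apart.

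Covered bases are coverage times length. Ratios of read rates have conditional binomial (Clopper-Pearson) intervals at 95%, and levels have Poisson intervals. There are no molecular identifiers, so reads need not be independent molecules. With 1 library per stage no p-value was computed. The members and all lists, 6 of related genes and 5 of tissue markers as patterns on protein names, were chosen with earlier results of these data known. Named were all members, per list of related genes the most abundant isotig and the largest called change with at least 100 reads, and the 8 closest profiles. Other isotigs were named after their values were seen. Python 3.11.15, scipy 1.17.1, R 4.3.3, edgeR 4.0.16 (TMM) and DESeq2 1.42.0 (median-of-ratios) were used, the last pair for scaling alternatives only.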

Additional observations from a re-analysis of the deposited data

How the results depend on the processing

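Pseudocounts of 0.1 and 1, TMM and median-of-ratios scaling, totals without the most abundant isotigs and, added after seeing the data, division by covered bases left the 40 recomputed log2 ratios of serum amyloid isotigs and their sum with reads in both libraries in the same direction and within their counting intervals. Ratios of isotig08093 in arousal, where it has 0 reads, are set by the pseudocount and show no stability: for arousal over deep aestivation they ran from -11.1 to -7.83. For the sum, values ran from 5.26 to 6.68 for deep aestivation over non-aestivation, -2.87 to -2.79 for arousal over deep aestivation and 3.48 to 3.86 for arousal over non-aestivation. Counts over all isotigs depended on the filter. Without it, 3527 were higher and 5701 lower for deep aestivation over non-aestivation (1430 and 2029 with it), 3356 and 3558 for arousal over deep aestivation (878 and 973), and 3463 and 5724 for arousal over non-aestivation (1366 and 2053). With at least 100 reads the counts were 540 and 529, 171 and 177, and 516 and 491. Requiring an interval that excludes equal rates left 530 and 602 for arousal over deep aestivation. TMM and median-of-ratios scaling moved the median log2 ratio of deep aestivation over non-aestivation to -0.0088 and -0.0046. Of 264 recomputed list counts, 47 moved by over 1.5-fold, many of them counts of a few isotigs. The cause was not tested. With 1 library per stage, leaving out a replicate could not be run. No paired analysis was possible because each stage has 1 library. The 1 or 2 reads in non-aestivation limit every ratio against that stage.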
